A study of Mus musculus with 4 samples.

Results

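Keratins are the intermediate filament proteins of epithelial cells, and the 10 described here are those that mark the basal and the luminal layers of glands and their neighbours in the family: Krt5, Krt6a, Krt7, Krt8, Krt14, Krt17, Krt18, Krt19, Krt20 and Krt80. They were picked by gene symbol from a count table of mouse 4T1-T breast cancer cells, and they were chosen with earlier results of the same comparison in view. All 10 were found among the 23481 genes of the table, which held 52 keratin genes in all. Because measured values chose the list, the differences of these 10 genes between the 2 conditions are given as a description. The number of them that passed a test is given beside the share over all genes, and nothing is read from it.

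The cells were 4T1-T, a derivative of 4T1, a mouse mammary carcinoma line. In every library the gene Asns had been silenced. Asns encodes asparagine synthetase, which converts aspartate into asparagine. The cells of both conditions carried the same silencing, and no unsilenced cells are part of the comparison. The first 2 libraries, A and B, came from cells grown in DMEM, a standard culture medium, without asparagine, and the 2 libraries they were set against, also A and B, came from cells in DMEM to which asparagine was supplied. Nothing in the labels says that the libraries came from separate cultures, so any p-value measures only how much these samples vary, and that variation may be technical.

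A keratin filament is built from pairs of an acidic type I chain and a basic type II chain, and neither chain makes a filament alone. In the mammary gland the inner luminal cells carry the simple epithelial pair Krt8 (type II) and Krt18 (type I), with Krt7 and Krt19, and the outer basal cells carry Krt5 (type II) with Krt14 (type I). Krt6a, Krt16 and Krt17 are keratins of skin appendages and of stressed or wounded epidermis. Krt20 is a keratin of gut and urothelium, and Krt80 is a type II keratin of many epithelia whose partner is less well defined.

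The type I members other than Krt18 lie in the keratin cluster on chromosome 11, and the type II members lie in the cluster on chromosome 15, at whose edge Krt18 stands beside Krt8. In the GENCODE M21 annotation of GRCm38, the assembly also called mm10, Krt14 spans chr11:100203162-100207548 on the minus strand, Krt16 spans chr11:100246091-100248902 and Krt17 spans chr11:100256217-100261029, both also on the minus strand. Krt5 spans chr15:101707070-101712898 and Krt8 spans chr15:101996698-102004482, both on the minus strand, and Krt18 spans chr15:102028180-102032027 on the plus strand. The starts of Krt8 and Krt18 are 23.7 kb apart, and those of Krt14 and Krt16 are 41.4 kb apart.

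The neighbours on chromosome 11 are close copies in part of their coding sequence, which bears on how their reads can be told apart. Of the 1707 different windows of 50 bases in the transcripts of Krt14, 188 (11.01%) also occur in Krt16 and 55 (3.22%) also occur in Krt17. The longest run that Krt14 and Krt16 share is 134 bases, and it lies early in the coding sequence. It is printed here from the GENCODE M21 transcripts, 5′ to 3′, with the shared run in capitals, as bases 369 to 562 of the Krt14 transcript and bases 264 to 457 of the Krt16 transcript.
Krt14: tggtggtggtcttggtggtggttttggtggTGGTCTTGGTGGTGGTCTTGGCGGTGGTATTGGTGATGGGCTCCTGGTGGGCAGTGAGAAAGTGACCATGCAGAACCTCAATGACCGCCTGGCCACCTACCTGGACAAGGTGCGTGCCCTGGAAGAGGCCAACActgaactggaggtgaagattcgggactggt
Krt16: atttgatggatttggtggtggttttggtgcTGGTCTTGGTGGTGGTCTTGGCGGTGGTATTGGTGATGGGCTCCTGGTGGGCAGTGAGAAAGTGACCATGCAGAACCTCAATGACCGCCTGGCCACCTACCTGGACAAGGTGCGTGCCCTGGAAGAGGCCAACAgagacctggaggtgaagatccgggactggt
The longest run that Krt14 and Krt17 share is 71 bases, near the end of the rod of the protein, and is printed with the same marking as bases 1279 to 1409 of the Krt14 transcript and bases 1139 to 1269 of the Krt17 transcript.
Krt14: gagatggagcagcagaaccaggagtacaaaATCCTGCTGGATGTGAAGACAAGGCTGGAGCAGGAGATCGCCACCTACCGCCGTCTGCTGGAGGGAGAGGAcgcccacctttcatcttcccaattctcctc
Krt17: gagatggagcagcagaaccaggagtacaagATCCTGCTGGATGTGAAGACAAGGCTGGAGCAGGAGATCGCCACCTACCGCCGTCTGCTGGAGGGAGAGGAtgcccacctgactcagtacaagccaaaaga
Reads that fall wholly inside the capitals cannot be given to 1 of the copies. HTSeq, the read counter, listed no read as not unique in any library, so how such reads were placed was not tested.

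Counts assigned to genes were 17977552 and 22581543 in the A and B libraries without asparagine, and 23867011 and 30260582 in the A and B libraries with asparagine. Levels are given as CPM, in which gene counts are scaled to a common library total, here with TMM factors. A count of 0 allows a level of up to 0.134 to 0.163 CPM in libraries without asparagine and 0.100 to 0.126 CPM in those with asparagine, a limit of 3 counts that covers counting error only. Library A without asparagine stood apart: 56.6% of its reads fell outside annotated genes, against 47.4% in library B without asparagine and 46.3% to 49.3% in the libraries with asparagine, and the ribosomal RNA gene Rn45s took 3.53% of its gene counts, against 1.66% and 0.884% to 1.18% in the same libraries. Values are therefore given for each library, and with library A left out where that mattered. Asns itself stood at 75.0 and 89.2 CPM without asparagine, against 103 and 101 CPM with it (log2 difference -0.31, adjusted p = 0.235, edgeR). With no unsilenced cells, these levels do not check the silencing.

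The epithelial label of the cells was checked against defining markers. Cdh1, the epithelial cadherin, averaged 381 ± 45.7 CPM without and 269 ± 11.1 CPM with asparagine (SD, n = 2 each, a log2 difference of 0.50, adjusted p = 0.106). Vim, the intermediate filament protein of mesenchymal cells, averaged 3060 ± 227 CPM without and 3032 ± 87.2 CPM with asparagine (a log2 difference of 0.01, adjusted p = 0.962), so both epithelial and mesenchymal markers were well measured. Markers of other cell types were low except for 1 gene. Of 9 fibroblast markers, Pdgfra alone passed the low-count filter, at 18.1 and 22.8 CPM without asparagine against 42.8 and 40.7 CPM with it, and the summed level of the list was 18.7 and 23.6 CPM against 43.6 and 41.4 CPM. Pdgfra was lower without asparagine, with a log2 fold change of -1.03 ± 0.14 (SE) and an adjusted p of 0.0221 that was lost with library A or B with asparagine left out (0.114 and 0.0943, from 4.54e-22 over 12 alternatives). The summed levels of 9 leukocyte, 6 endothelial and 6 adipocyte markers stayed between 0.300 and 2.07 CPM in every library. The leukocyte gene Csf1r (0.25, adjusted p = 0.791) and the endothelial gene Tek (-0.73, adjusted p = 0.569) had the smallest p of their lists, in which 0 genes were called by edgeR, DESeq2 or limma-voom and 0 had an unadjusted p under 0.05. No adipocyte marker passed the filter. Thy1, Cd3e and Adipoq were at 0 in all libraries. The part of such cells in the keratin values was not tested, and in bulk RNA fewer cells of a type and less RNA per cell cannot be told apart.

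Krt14, the type I keratin of basal cells, was the member that differed most between the conditions. It had 598 and 613 counts in the A and B libraries without asparagine, against 95 and 149 counts in their A and B counterparts with it. In CPM these were 32.6 and 27.4 without asparagine and 3.99 and 4.97 with asparagine. The groups did not overlap, and the lower library without asparagine stood far above the higher library with it. The means were 29.99 ± 3.66 CPM without and 4.48 ± 0.691 CPM with asparagine (SD, n = 2 each), with a log2 fold change of 2.73 ± 0.17 (SE), or 6.65-fold. Krt14 ranked 11 of 12843 genes by fold change, counted from the highest.

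Krt5, the type II partner of Krt14 in basal cells, was near absence. It had 0 counts in both libraries without asparagine, against 0 and 2 counts in the A and B libraries with asparagine. Levels of different genes were compared as RPKM, CPM per kilobase of the union of a gene's exons. Krt14 reached 18.5 and 15.6 RPKM in the A and B libraries without asparagine, against 2.27 and 2.83 RPKM in their A and B counterparts with it. Set against the limit of 3 counts for Krt5 in the same library, the level of Krt14 was at least 249-fold and 255-fold higher in the A and B libraries without asparagine, and at least 39.6-fold higher in library A with asparagine. The basal type I chain was thus measured with its usual partner at or near 0 counts in both conditions.

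The other keratins of stressed epidermis among the members were also at the edge of detection. Krt6a, a type II keratin, had 0 and 0 counts without asparagine, against 0 and 2 counts with it. Krt17, a type I keratin that shares the 71-base run with Krt14, had 2 and 6 counts without asparagine, against 2 and 2 counts with it. These are too few for a comparison. Krt20, the gut and urothelial type I keratin, had 1 and 0 counts without asparagine, against 0 and 1 counts with it. None of these 3 genes, nor Krt5, passed the low-count filter, and the highest count of any of the 4 in any library was 6.

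**Figure D1:**
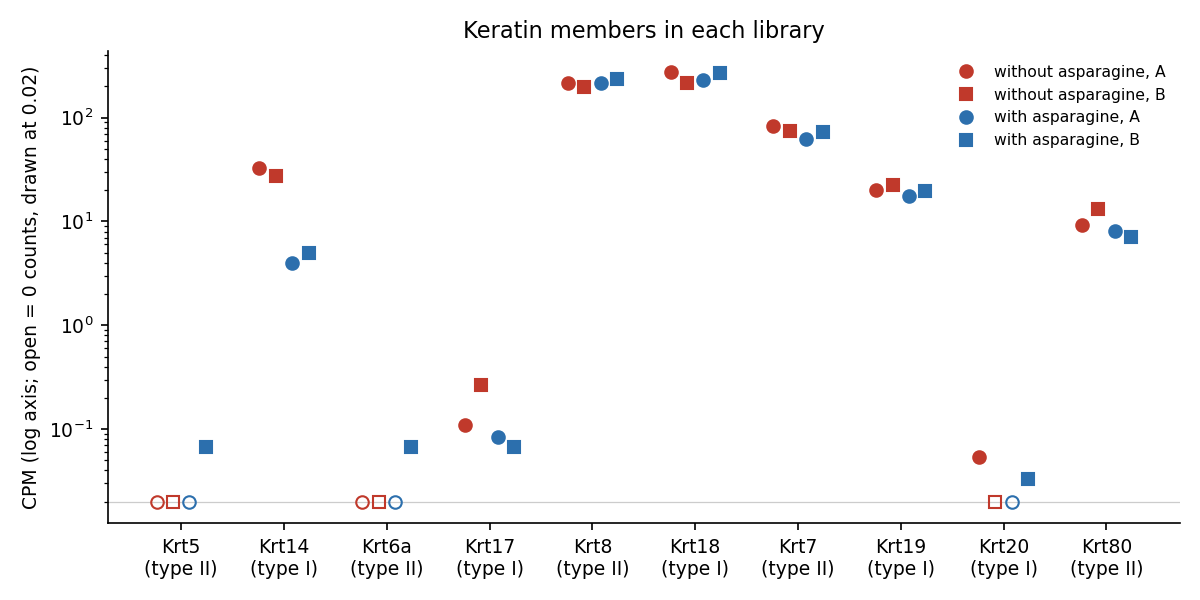
Levels of the 10 listed keratins in CPM (log axis) in each of the 4 libraries, without asparagine to the left of with asparagine, open symbols standing for 0 counts. Krt14 is the member whose 2 pairs of points are far apart, at 32.6 and 27.4 CPM without asparagine and 3.99 and 4.97 CPM with asparagine.

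The luminal pair was the most abundant keratin RNA in both conditions and differed little. Krt8, the type II chain, stood at 215 and 199 CPM in the A and B libraries without asparagine, against 216 and 237 CPM in their A and B counterparts with it. Both libraries without asparagine were lower, though library A was close to library A with asparagine, and the log2 fold change was -0.13 ± 0.11 (SE). With each library left out in turn, the Krt8 value stayed below 0, from -0.20 to -0.07. Krt18, the type I chain, stood at 274 and 217 CPM without asparagine, against 229 and 269 CPM with it. Here the groups overlapped: the highest and the lowest level both came from libraries without asparagine. The means of Krt18 were 245 ± 40.3 CPM without and 249 ± 28.4 CPM with asparagine (SD, n = 2 each), with a log2 fold change of -0.02 ± 0.15. The sign of the Krt18 difference was not stable. It was 0.03 with upper quartile scaling, -0.20 with library A without asparagine left out and 0.13 with library B without asparagine left out.

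Krt7 and Krt19, keratins of simple and glandular epithelia, were slightly higher in every library without asparagine. Krt7, a type II chain, stood at 83.3 and 74.6 CPM without asparagine, against 62.8 and 73.4 CPM with it. The gap between the groups was small beside the spread within the group with asparagine, and the log2 fold change was 0.21 ± 0.12 (SE). The value ran from 0.10 to 0.33 over 12 alternative settings. Krt7 overlaps Gm671 on the opposite strand. Krt19, an unusually short type I chain with almost no tail, stood at 20.2 and 22.3 CPM without asparagine, against 17.6 and 19.4 CPM with it. The log2 fold change was 0.20 ± 0.13 and ran from 0.12 to 0.27 over the 12 settings.

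Krt80, a type II keratin, had the second largest fold change of the members. It stood at 9.31 and 13.2 CPM in the A and B libraries without asparagine, against 8.02 and 7.10 CPM in their A and B counterparts with it. The groups did not overlap, but library B without asparagine was well above library A of the same condition. The means were 11.3 ± 2.74 CPM without and 7.56 ± 0.652 CPM with asparagine (SD, n = 2 each), with a log2 fold change of 0.58 ± 0.20 (SE). The value was 0.30 with library B without asparagine left out, and 0.81 with library A without asparagine left out. Krt80 overlaps Gm35853 on the opposite strand. Opposite-strand genes also overlap Krt8 (Gm36026), Krt5 (Gm44323) and Krt6a (Gm44342 and Gm49428). The labels do not say whether strand was used in counting.

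Of the 10 members, 6 passed the filter, 1 was called higher (Krt14) and 0 were called lower at an adjusted p under 0.05 in edgeR's quasi-likelihood test, where 1.85% of all 12843 tested genes were called in either direction. Without adjustment, 2 members were higher at a p under 0.05 and 0 were lower, and DESeq2 and limma-voom each called 1 higher and 0 lower. Over all genes, DESeq2 called 193 higher and 271 lower of 12345, and limma-voom called 98 higher and 137 lower of 12843. Since the members were listed with this comparison in view, the counts of members called support nothing. The CPM ranges of the groups did not overlap for 5 of the 6 tested members, where the same held for 52.5% of all tested genes. Among the tested members, 4 values lay above 0 and 2 below it. Their median log2 fold change was 0.21, beside 0.01 over all tested genes. The log2 fold change of Krt14 lay between 2.59 and 2.90 over the 12 alternative settings.

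**Figure D2:**
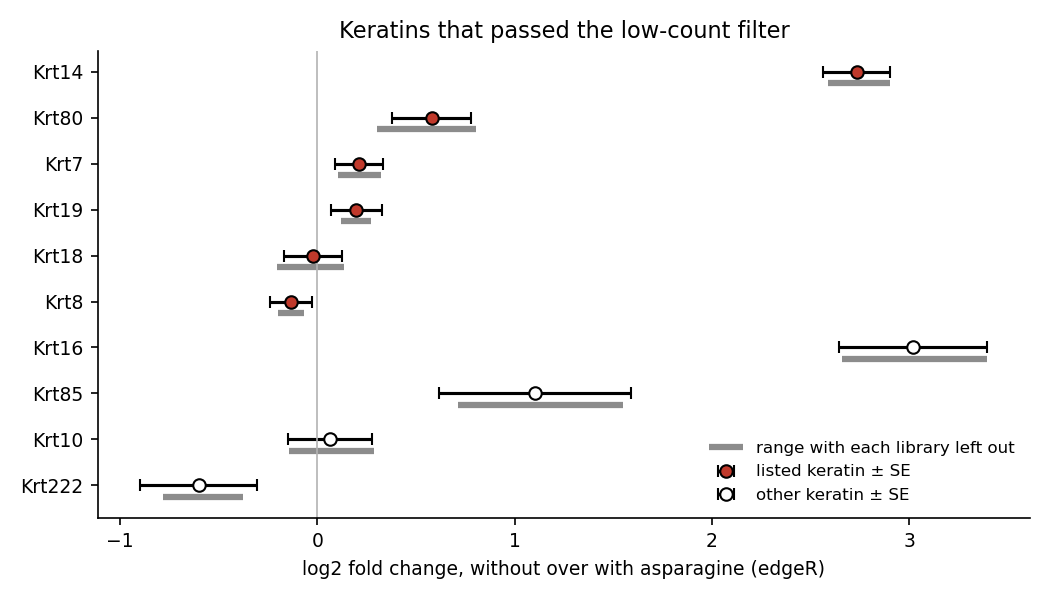
Log2 fold changes without over with asparagine, with SE, of the 6 listed keratins (filled) and 4 other keratins (open) that passed the low-count filter, with grey bars for the range when each library was left out in turn. Krt14 at 2.73 and Krt16 at 3.02 stand apart from the rest, and the bars of Krt18 and Krt10 cross 0.

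**Figure D3:**
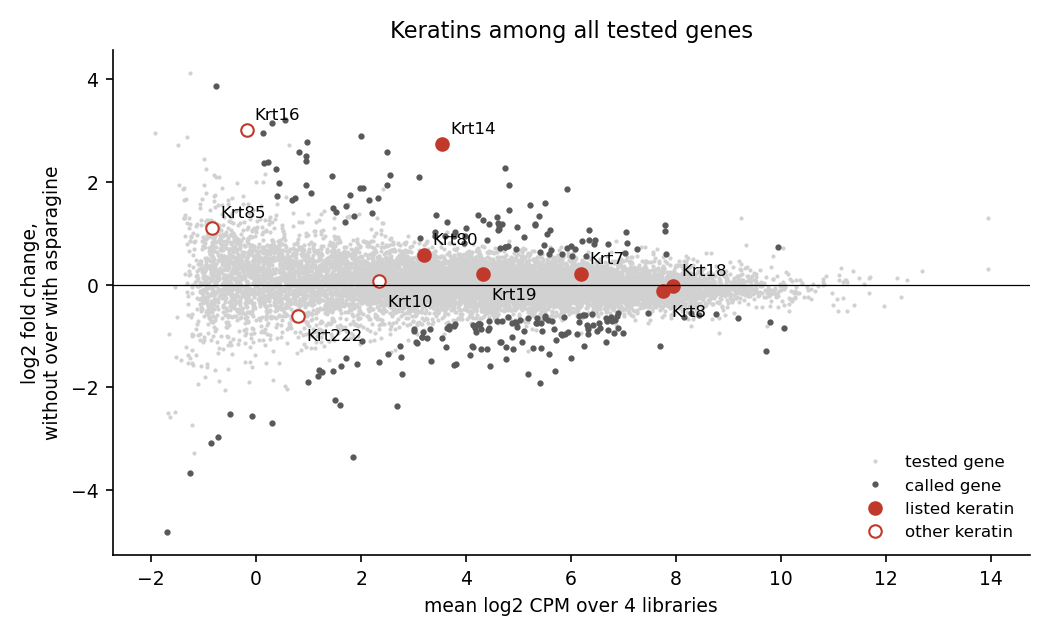
Log2 fold change without over with asparagine against mean log2 CPM for all 12843 tested genes (grey, called genes darker) with the tested keratins marked. Krt14 and Krt16 lie at the upper edge of the cloud, and Krt8 and Krt18 lie near 0 at high abundance.

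Per length, the order of the members was Krt18, Krt8, Krt14, Krt19, Krt7 and Krt80 without asparagine, and Krt18, Krt8, Krt19, Krt7, Krt14 and Krt80 with it, so that Krt14 held the third place without and the fifth place with asparagine. Krt18 averaged 171 ± 28.1 RPKM without and 173 ± 19.8 RPKM with asparagine, and Krt8 averaged 106 ± 5.72 RPKM without and 116 ± 7.54 RPKM with asparagine (SD, n = 2 each). Krt14 averaged 17.1 ± 2.08 RPKM without and 2.55 ± 0.393 RPKM with asparagine. Krt19 averaged 11.4 ± 0.782 RPKM without and 9.97 ± 0.716 RPKM with asparagine, and Krt7 averaged 11.2 ± 0.871 RPKM without and 9.66 ± 1.05 RPKM with asparagine. Krt19 and Krt7 were neighbours that did not differ beyond their spread in either condition. Their order also depends on the length used: with the longest transcript in place of all exons, Krt7 averaged 19.3 RPKM without and 16.6 RPKM with asparagine, above Krt14 at 17.7 RPKM without and 2.64 RPKM with asparagine. Krt80 stood lowest of the tested members, at 1.76 ± 0.428 RPKM without and 1.18 ± 0.102 RPKM with asparagine.

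Ratios within a library do not depend on its depth. Krt14 over Krt18, a basal over a luminal type I chain, was 0.0973 and 0.103 in the A and B libraries without asparagine, against 0.0143 and 0.0151 in their A and B counterparts with it, on the scale of levels per length. Both libraries of a condition lay close together, although their depth and their share of reads outside genes differed. Even without asparagine, Krt14 was therefore a minor chain beside Krt18. It made up 8.42% and 8.73% of the summed type I level of the members in the A and B libraries without asparagine, against 1.33% and 1.41% in their A and B counterparts with it.

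The balance of the luminal chains did not separate the conditions. Krt8 over Krt18 was 0.575 and 0.673 in the A and B libraries without asparagine, against 0.693 and 0.646 in their A and B counterparts with it, and the 2 ranges overlapped. Krt19 over Krt18 was 0.0572 and 0.0796 without asparagine, against 0.0595 and 0.0560 with it, also with overlap. The summed type I over the summed type II level was 1.79 and 1.56 without asparagine, against 1.42 and 1.51 with it. Both libraries without asparagine were higher, and the gap between the conditions was smaller than the gap between the 2 libraries without asparagine. The summed level of all 10 members was 634 and 553 CPM without asparagine, against 537 and 611 CPM with it, so total keratin RNA overlapped between the conditions. With 2 libraries against 2, an exact permutation test could not have passed a threshold of 0.05, and none was made on the ratios.

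**Figure D4:**
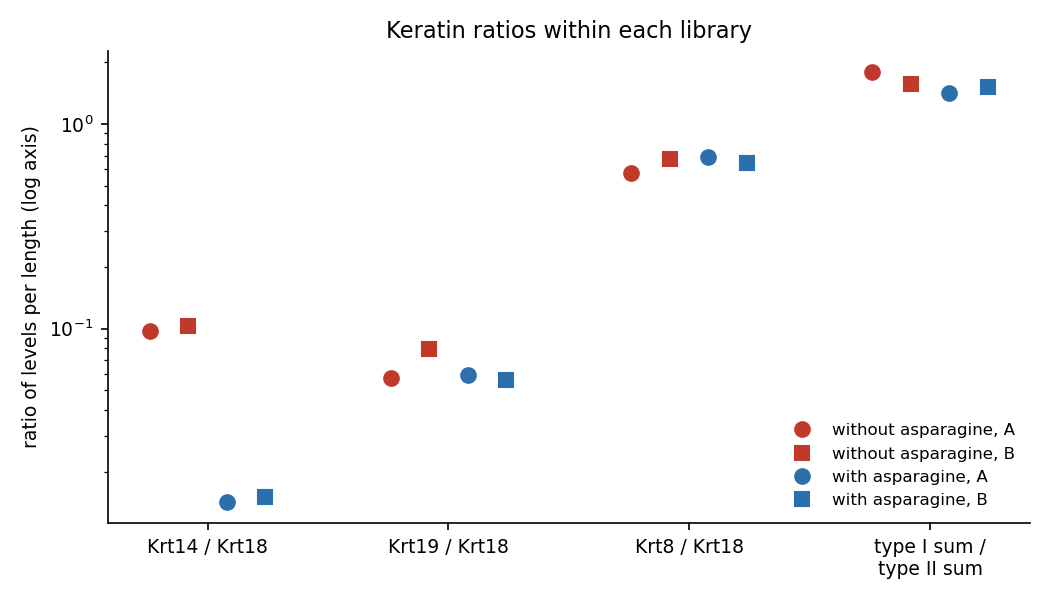
Ratios of keratin levels per length within each library (log axis), without asparagine to the left of with asparagine. Krt14 over Krt18 is 0.0973 and 0.103 without and 0.0143 and 0.0151 with asparagine, and the ratio of Krt8 to Krt18 overlaps between the conditions.

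Among the 42 keratin genes that are not listed members, 4 passed the filter, 12 had 0 counts in all libraries, and no gene among the 38 that did not pass had more than 7 counts in any library. Krt16, the type I keratin that shares the 134-base run with Krt14, had 39 and 49 counts in the A and B libraries without asparagine, against 8 and 6 counts in their A and B counterparts with it. Its level was 2.12 and 2.19 CPM without asparagine, against 0.336 and 0.200 CPM with it, with no overlap. Krt16 passed the filter only through the libraries without asparagine, so a tested Krt16 had to differ in this direction and its p supports little. The log2 fold change was 3.02 ± 0.38 (SE), with an adjusted p of 0.0158, and the call was lost with library B with asparagine left out (2.66, adjusted p = 0.124, in a range from 4.754e-10 to 0.124 over 11 alternatives).

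The counts of Krt16 were 0.0652 and 0.0799 of those of Krt14 in the A and B libraries without asparagine, against 0.0842 and 0.0403 in their A and B counterparts with it, and these ranges overlapped. Because Krt16 has 12.4% of its 50-base windows in common with Krt14, and the placing of shared reads is unknown, how much of its counts came from Krt14 was not tested. Krt16 also shares 25.2% of its windows with Gm11597, a symbol that the count table does not hold. Krt8 shares 26.9% of its windows with the pseudogene Krt8-ps on chromosome 7, also not in the count table, and Krt6a shares 40.2% with Krt6b. The values of these genes are uncertain for this reason, and by how much was not tested.

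The other 3 tested keratins were not called. Krt10, the type I keratin of upper epidermal layers, stood at 4.96 and 5.32 CPM without asparagine, against 5.67 and 4.20 CPM with it (a log2 difference of 0.07, adjusted p = 0.892). Krt85, a type II hair keratin, stood at 0.817 and 0.581 CPM without asparagine, against 0.420 and 0.233 CPM with it (1.11 ± 0.49, adjusted p = 0.294), and it too passed the filter only through the libraries without asparagine. Krt222, a keratin-like gene in the type I cluster, stood at 1.53 and 1.21 CPM without asparagine, against 1.76 and 2.33 CPM with it (-0.60 ± 0.30, adjusted p = 0.336). High and low libraries of Krt10 were mixed between the conditions, and those of Krt85 and Krt222 were not.

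Filaments reach the cell surface through linker proteins at desmosomes. Of 15 linker and desmosomal plaque genes in the table, 14 were tested, 1 was called higher and 1 lower, where 1.85% of all tested genes were called. At an unadjusted p under 0.05, 6 were higher and 1 lower. DESeq2 called 2 higher and 1 lower, beside 193 higher and 271 lower of 12345 genes in all. The median log2 fold change was 0.33, beside 0.01 over all tested genes. Dsp, or desmoplakin, which anchors keratin filaments to the desmosome, was higher, at 178 and 177 CPM in the A and B libraries without asparagine against 96.8 and 104 CPM in their A and B counterparts with it (a log2 difference of 0.82 ± 0.10, SE, adjusted p = 0.0145). Ppl, or periplakin, another linker of keratin filaments, was lower, at 100.4 and 96.2 CPM without asparagine against 142 and 145 CPM with it (-0.55 ± 0.10, adjusted p = 0.0481). These linkers thus differed in opposite directions. Leaving out library A or B with asparagine ended both calls, with adjusted p of 0.317 and 0.201 for Dsp and 0.642 and 0.667 for Ppl. The Ppl call was also lost with upper quartile scaling (adjusted p = 0.0716) and with a filter at 5 CPM (0.0502). Over 12 alternatives the adjusted p ran from 2.06e-25 to 0.317 for Dsp and from 3.01e-11 to 0.667 for Ppl.

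The other intermediate filament genes, such as Vim and the lamins, held 9 tested genes, of which 0 were called in either direction by edgeR, DESeq2 or limma-voom and 0 had an unadjusted p under 0.05. The gene with the smallest p was Iffo2, an intermediate filament family gene, at a log2 fold change of -0.37 and an adjusted p of 0.318. Their median log2 fold change was 0.05, and edgeR called 1.85% of all tested genes.

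Basal and myoepithelial markers other than keratins were 25 in the table, of which 17 were tested. Of these, 3 were called higher and 0 lower, where 1.85% of all tested genes were called. At an unadjusted p under 0.05, 5 were higher and 2 lower. DESeq2 called 4 higher and 1 lower, beside 193 higher and 271 lower of 12345 genes in all. The limma-voom test called 3 higher and 0 lower, beside 98 higher and 137 lower of 12843. Their median log2 fold change was 0.07, and it was -0.05 with library B without asparagine left out. Lamb3 and Lama3 encode chains of laminin-332, the basement membrane protein of basal epithelial cells. Lamb3 stood at 62.6 and 69.6 CPM without asparagine, against 24.8 and 27.6 CPM with it (a log2 difference of 1.33 ± 0.12, SE, adjusted p = 0.00678). Lama3, named after its values were seen, stood at 45.2 and 46.9 CPM without asparagine, against 22.0 and 20.2 CPM with it (1.13 ± 0.11, adjusted p = 0.00799). The groups did not overlap for either laminin chain, which held for 52.5% of all tested genes. Wnt10a, a secreted Wnt ligand, stood at 6.97 and 7.73 CPM without asparagine, against 2.81 and 2.77 CPM with it (1.40 ± 0.19, adjusted p = 0.0201).

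The call of Lamb3 held under each of the 12 alternatives. That of Lama3 was lost with library B with asparagine left out (adjusted p = 0.0943, from 4.49e-25 over the 12 alternatives), and that of Wnt10a was lost with library A or B with asparagine left out (0.115 and 0.149, from 9.50e-10). Trp63, the transcription factor that defines basal cells, had 1 and 3 counts without asparagine, against 4 and 6 counts with it, and Snai2, another basal factor, was at 0 in all libraries. Acta2, the actin of myoepithelial cells, stood at 3.98 and 2.73 CPM without asparagine, against 2.18 and 2.10 CPM with it (adjusted p = 0.269), and was chosen after its values were seen, as was Trp63. Of the 17 tested markers, 11 lay above 0 and 6 below it. The lowest was Ngfr, also chosen after its values were seen. It stood at 2.78 and 4.83 CPM without asparagine, against 8.28 and 10.7 CPM with it (-1.30 ± 0.27, SE, adjusted p = 0.0755, edgeR). Krt14 was thus measured in libraries in which Trp63 and Snai2 were at or near 0. Which or how many cells held the Krt14 RNA cannot be told from bulk RNA. Other basal markers of the list ranged widely, as 2 genes chosen after their values were seen show. Itgb1 averaged 807 CPM without and 779 CPM with asparagine, and Tagln averaged 2.85 CPM without and 2.16 CPM with it. Abundant genes such as Itgb1 carry most of the sum. The summed level of the list was 1775 and 2128 CPM without asparagine, against 1930 and 1959 CPM with it. No cell identity is read from the genes named.

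Luminal markers other than keratins gave calls in both directions. Of 29 in the table, 15 were tested, 1 was called higher and 1 lower, where 1.85% of all tested genes were called. Their median log2 fold change was 0.27, beside 0.01 over all tested genes. At an unadjusted p under 0.05, 4 were higher and 1 lower. DESeq2 called 2 higher and 1 lower, beside 193 higher and 271 lower of 12345 genes in all. Epcam, an epithelial adhesion protein, was higher, at 65.1 and 58.9 CPM without asparagine against 37.3 and 40.2 CPM with it (0.68 ± 0.11, SE, adjusted p = 0.0368). Csn3, the milk protein kappa casein, was lower, at 1.14 and 1.34 CPM without asparagine against 5.76 and 6.17 CPM with it (-2.25 ± 0.22, adjusted p = 0.00799). The groups did not overlap for either gene, which held for 52.5% of all tested genes. Gata3, a luminal transcription factor, stood at 175 and 134 CPM without asparagine, against 121 and 128 CPM with it (0.31, adjusted p = 0.306), and was chosen after its values were seen. Elf5 and Foxa1, other luminal factors chosen in the same way, were low. Elf5 had 0 and 3 counts without asparagine, against 3 and 6 counts with it. Foxa1 stood at 1.31 and 2.64 CPM without asparagine, against 2.06 and 1.30 CPM with it. The milk genes Csn2, Ltf and Lalba were at 0 in all libraries. The Csn3 call held under each of the 12 alternatives, and that of Epcam was lost with library A or B with asparagine left out (0.555 and 0.384, from 2.58e-13).

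Factors known to act on keratin genes in epithelia, such as AP-1, KLF, GRHL and AP-2 proteins, were tested as a list of 34 genes. Of these, 28 passed the filter, 1 was called higher and 0 lower by edgeR, DESeq2 and limma-voom alike. In edgeR, 1.85% of all tested genes were called. At an unadjusted p under 0.05 in edgeR, 7 were higher and 1 lower. Among the 7, Grhl3 passed the filter only through the libraries without asparagine, so it had to differ in that direction. The median log2 fold change was 0.05, and it was -0.05 with library A without asparagine left out. Grhl1, a grainyhead-like factor of epidermal differentiation, was higher, at 3.16 and 2.55 CPM without asparagine against 0.882 and 0.867 CPM with it (1.70 ± 0.28, SE, adjusted p = 0.0368). Its call was lost with library A or B with asparagine left out (0.274 and 0.310, from 2.11e-06 over 11 alternatives).

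Squamous differentiation genes, the products of the layers in which Krt14-bearing cells mature in skin, were mostly too low to test. Of 29 in the table, 7 passed the filter, and 2 of these, Dsg3 and Cdsn, did so only through the libraries without asparagine. Perp, a desmosome protein of stratified epithelia, was the gene called higher, at 104 and 114 CPM without asparagine against 59.1 and 60.2 CPM with it (0.87 ± 0.11, SE, adjusted p = 0.0144), and 0 genes were called lower by edgeR, DESeq2 or limma-voom or had an unadjusted p under 0.05 in that direction. At an unadjusted p under 0.05, 5 were higher, Dsg3 and Cdsn among them. DESeq2 called 2 higher, beside 193 higher and 271 lower of 12345 genes in all. Of all tested genes, edgeR called 1.85%. The list's median of 0.87 rests on these few genes. The Perp call was lost with library A or B with asparagine left out (0.219 and 0.199, from 1.31e-26). Ivl and Lor, which build the cornified envelope, were at 0 in all libraries.

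**Figure D5:**
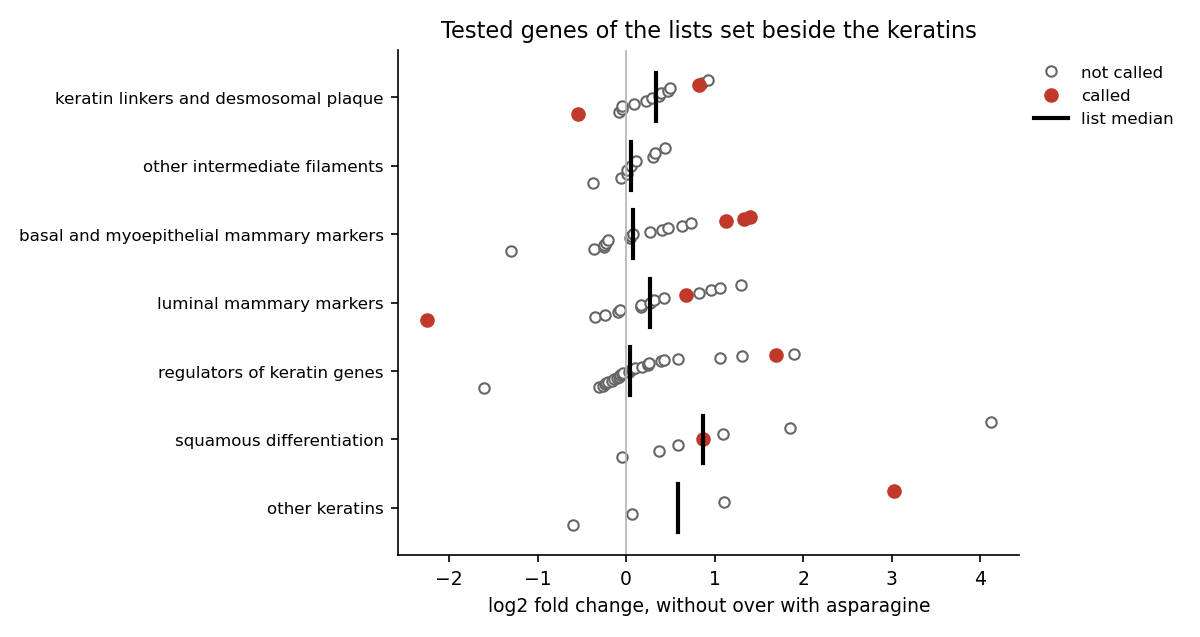
Log2 fold changes without over with asparagine of the tested genes in each list set beside the keratins, with called genes filled and a bar at the list's median. Most lists are spread on both sides of 0, with medians of 0.07 for basal and 0.27 for luminal markers.

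The genes whose profile over the 4 libraries was most like that of Krt14 were found by the distance between log2 CPM values centred on their mean. The 9368 genes compared were tested genes averaging 5 CPM or more. Symbols of Gm with a number, or ending in Rik, were passed over. Prl2c2, a prolactin family gene with near-identical copies whose counts are uncertain, was nearest (0.508 log2 units), and AU018091 (0.580), Gpr97 (0.697) and Wnt7a (0.833) were also among the 5 nearest. Gpr97, an adhesion G protein-coupled receptor, stood at 17.2 and 18.0 CPM without asparagine, against 3.99 and 4.17 CPM with it. Since likeness was measured over these same libraries, each gene had to differ between the conditions. Krt16 averaged under 5 CPM and was not among the genes compared.

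The promoters of the members were read in RefSeq windows on GRCm38.p6, from 250 bases before to 50 after a start, and 6 of the 10 members had one: Krt5, Krt7, Krt8, Krt14, Krt18 and Krt20. They were searched on both strands for 7 motifs. A TATA box (TATAAA) occurred in the windows of Krt8 and Krt20, and in 13.6% of all 32851 windows. A GC box (GGGCGG) occurred 4 times in that of Krt7, and in 35.7% of all windows. The start used for Krt7 lies 1360 bases inside the gene as annotated in GENCODE. The E-box CAGCTG occurred in those of Krt5 and Krt8, and in 16.3% of all windows. The AP-1 motif (TGANTCA), the amino acid response element called CARE (TGATGNAA), the GRHL motif (AACNGGTT) and the ETS motif (CCGGAAG) were in none of the 6, and in 7.81%, 3.97%, 2.09% and 8.86% of all windows. The Krt14 window was taken around a RefSeq start that lies 1518 bases inside the gene as annotated in GENCODE. It therefore does not cover the annotated start of the gene, and no motif was found in it. The window of Krt8 is printed because Krt8 and Krt18 are the paired luminal genes whose levels differed little, with TATA box and E-box matches in capitals, the 2 TATA box matches lying on opposite strands and overlapping, at positions -3 and -1 from the RefSeq start, which lies 140 bases inside the gene as annotated in GENCODE. It spans chr15:102004293-102004592 on the minus strand.
Krt8: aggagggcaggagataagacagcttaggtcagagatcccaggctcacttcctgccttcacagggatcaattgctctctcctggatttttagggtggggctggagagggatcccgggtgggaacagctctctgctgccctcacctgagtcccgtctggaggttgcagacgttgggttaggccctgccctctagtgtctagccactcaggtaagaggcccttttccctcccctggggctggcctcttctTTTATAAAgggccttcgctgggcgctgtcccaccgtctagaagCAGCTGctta
The window of Krt18, chr15:102027966-102028265 on the plus strand, holds none of the 7 motifs.
Krt18: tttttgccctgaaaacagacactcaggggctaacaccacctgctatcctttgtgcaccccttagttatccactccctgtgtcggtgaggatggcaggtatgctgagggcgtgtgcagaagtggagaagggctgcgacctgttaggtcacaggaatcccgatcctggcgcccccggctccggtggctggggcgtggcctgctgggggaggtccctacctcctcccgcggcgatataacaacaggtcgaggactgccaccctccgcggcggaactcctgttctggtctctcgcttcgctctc
A match describes letters in a window, and its absence draws nothing about a factor.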

How the data were processed

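The authors deposited 1 table of whole-number read counts per gene symbol for 4 libraries, not normalised. Per the labels' protocols, RNeasy columns from Qiagen gave the total RNA, and libraries were made with the Ovation RNAseq V2 system of NuGEN. Bowtie2, HTSeq and build mm10 are named in the submitters' processing notes. Not given in the sources used here are versions, annotation and strand use. In all, 5 HTSeq summary rows holding 60.1% to 70.0% of reads were kept out of library sizes. Any mitochondrially encoded genes, with symbols beginning mt-, were also kept out, and the 23481 genes are those that remained.

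In R 4.3.3, the deposited counts were filtered by filterByExpr (minimum count 10, minimum total 15), scaled by TMM and tested in edgeR 4.0.16 by the quasi-likelihood F test on all 4 libraries, without a term for the letter. Benjamini-Hochberg adjustment ran over 12843 genes with a threshold of 0.05, and "called" means past it. Counts at an unadjusted p under 0.05 have no share over all genes beside them, so nothing is read from them. SE was the log2 fold change divided by the square root of F. CPM and RPKM were computed from the counts; the common biological coefficient of variation was 11.2%.

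The members and the gene lists were chosen with earlier results of these data known. The genes named are the 10 members, every tested other keratin, up to 2 called genes of a list with the largest change (or, with no call, its gene with the smallest p) and the 5 genes with profiles nearest to Krt14. Of the last, 1 is not reported here. Others are marked as chosen after their values were seen, besides Asns, genes at 0 and the cell identity checks. Alternatives were DESeq2 size factors, upper quartile scaling, DESeq2 1.42.0, limma-voom (limma 3.58.1), no filter, a 5 CPM filter in 2 libraries, a block for the letter, the 10 most abundant genes left out and each library left out. With a library left out, the lone library was taken to vary as the other group did. The pipeline was tested on simulated data.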

Additional observations from a re-analysis of the deposited data

How the results depend on the processing

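Among all genes, 99 were called higher and 138 lower without asparagine. These counts were 193 and 271 with the DESeq2 Wald test, 615 and 719 with no low-count filter, and 24 to 2502 and 23 to 2861 with each library left out in turn. Other alternatives stayed within 1.5 times, except the replicate block. The labels do not say whether libraries with the same letter were paired. The correlation of deviations, 0.123 for 1 letter over 2 pairs, cannot decide it. With the letter as a replicate block the counts were 344 and 472. Of the members, 1 was called higher and 0 lower. With no filter 2 were called higher, and with each library left out 1 to 2 were called higher and 0 to 2 lower. Krt18 turned above 0 with upper quartile scaling (0.032) and ran from -0.20 to 0.13 with each library left out, above 0 without either B library. With each library left out, Krt10 ran from -0.14 to 0.29, the low value without library B with asparagine. The leukocyte gene Csf1r, at 0.25, ran from -0.37 to 0.63, the low value without library B without asparagine. The mean of Krt14 over Krt18, 0.100 without and 0.0147 with asparagine, was 0.0617 and 0.00885 when Krt5 plus Krt14 was set over Krt8 plus Krt18. That alternative adds Krt8 to the denominator by its construction, and for the other values the cause was not tested. With 2 libraries a group, library A without asparagine apart from the rest, and no stated strand use, members under 10 counts could not be compared.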
